A study of Mus musculus with 16 samples.

Results

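App, Hyi, Lhfpl2 and Slk are 4 of the 7832 named genes, among 12420 features in all, that were measured in NIH3T3 mouse fibroblasts given azacytidine. They were chosen by their measured values, because their mean log ratio lay above 0 in Erbb2-transfected cells at 10 µM and below 0 in untransfected cells at 10 µM. Each was read by 1 cDNA probe with a single gene symbol, and all 4 probes had a value on all 16 arrays. The values at 10 µM therefore chose the genes, and they are given below as a description with no test. The opposition between the lines also depends on a dye label that the records leave in doubt, and its effect is given with each result it touches. The gene names rest on the probe numbers alone. Over 1486 genes with exactly 2 probes, the deposited ratios of the 2 probes correlated across genes with Pearson's r of -0.06 to 0.06 on the 16 arrays (median 0.02), so the values hold no check that a row belongs to the gene named for it, and each value below is that of the probe listed under the gene's name.

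Each array carried RNA of azacytidine-treated cells and of untreated cells of the same line in 2 dyes. There were 8 arrays of Erbb2-transfected NIH3T3 cells at 10 µM, 4 arrays of the same transfected cells at 5 µM, and 4 arrays of untransfected NIH3T3 cells at 10 µM. No group lacked the drug, since untreated RNA was the other channel of every array. The labels do not give the length of treatment, whether the transfected line was 1 clone, or whether arrays came from separate cultures, so p-values measure the spread between arrays, which may be technical. The protocol text in the labels speaks of organs and of control animals, not of cell lines. Ratios within a line hold no expression level, so fibroblast markers could not be checked, and Erbb2 had no probe under that symbol.

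Azacytidine, an analogue of cytidine, enters the DNA of dividing cells and binds DNA methyltransferases covalently, so that methyl groups at CpG dinucleotides are lost as cells divide. App encodes the amyloid precursor protein, a single-pass membrane protein that secretases cut, with roles in adhesion and trafficking. Hyi is named for hydroxypyruvate isomerase, an enzyme that interconverts hydroxypyruvate and tartronate semialdehyde. Lhfpl2 encodes a tetraspan membrane protein of the lipoma HMGIC fusion partner-like family. Slk encodes the STE20-like serine/threonine kinase, which acts on the cytoskeleton and phosphorylates proteins that link actin to the membrane. In the RefSeq annotation of the C57BL/6J genome (GRCm38.p6), App (Entrez Gene 11820, chromosome 16), Lhfpl2 (218454, chromosome 13) and Slk (20874, chromosome 19) are protein-coding, and Hyi (68180, chromosome 4) is listed as a transcribed pseudogene.

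Since the methyl groups lost under azacytidine lie at CpG dinucleotides, each CG is given in capitals in the promoter sequences below. The 250 bases before the annotated start are shown for the 3 genes with a RefSeq promoter entry, 5′ to 3′ on the strand of the gene. Hyi had no entry. The windows are chr16:85173708-85173957 on the minus strand for App, chr13:94057546-94057795 on the plus strand for Lhfpl2, and chr19:47579769-47580018 on the plus strand for Slk, all in GRCm38.p6.
App: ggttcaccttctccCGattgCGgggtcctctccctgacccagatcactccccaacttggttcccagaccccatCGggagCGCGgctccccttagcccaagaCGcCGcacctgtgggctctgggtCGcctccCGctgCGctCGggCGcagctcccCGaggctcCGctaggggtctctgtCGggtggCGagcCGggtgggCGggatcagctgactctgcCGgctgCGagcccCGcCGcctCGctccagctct
Lhfpl2: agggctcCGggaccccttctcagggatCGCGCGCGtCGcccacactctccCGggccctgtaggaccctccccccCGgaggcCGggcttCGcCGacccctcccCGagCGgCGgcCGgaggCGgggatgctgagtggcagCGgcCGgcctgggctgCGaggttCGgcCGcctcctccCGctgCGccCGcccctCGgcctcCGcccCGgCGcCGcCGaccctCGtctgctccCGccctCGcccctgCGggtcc
Slk: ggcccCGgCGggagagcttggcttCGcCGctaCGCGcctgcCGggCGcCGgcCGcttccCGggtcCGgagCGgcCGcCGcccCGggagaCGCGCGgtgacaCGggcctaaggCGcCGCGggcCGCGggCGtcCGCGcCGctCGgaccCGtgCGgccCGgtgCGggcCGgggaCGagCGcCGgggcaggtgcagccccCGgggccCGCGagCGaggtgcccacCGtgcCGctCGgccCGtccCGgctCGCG

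All 3 windows were rich in CG. App held 23 CG dinucleotides, Lhfpl2 34 and Slk 49, against a median of 6 over 32851 promoter windows of the same length. Those windows were not selected for protein-coding genes or for genes measured here. As many or more were found in 13.3% of all windows for App, 3.52% for Lhfpl2 and 0.146% for Slk. The share of G and C bases was 70.8%, 80.0% and 84.4% in the same order, against a median of 52.4%. The GC box GGGCGG, searched on both strands, occurred 1 time in App, 3 times in Lhfpl2 and 1 time in Slk, and 32.7% of all windows held it. The E box CACGTG, the CCAAT box, the TATA box (TATAAA) and the AP-1 site (TGACTCA), searched on both strands, had no match in the 3 windows, while 6.0%, 33.8%, 12.4% and 4.5% of all windows held them. DNA methylation was not measured, and a match is a description of these letters.

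The deposited values, before any array was turned, split by dye in 11 of the 12 sets of 1 gene in 1 group. In Erbb2 cells at 10 µM all 4 genes were above 0 on the 4 arrays with the treated RNA in Cy5 and below 0 on the 4 arrays with it in Cy3. In untransfected cells the order was the other way, with all 4 genes below 0 on the 2 arrays labelled Cy5 and above 0 on the 2 labelled Cy3. At 5 µM, Hyi, Lhfpl2 and Slk split as at 10 µM. App at 5 µM did not, with deposited ratios of 0.578 and -0.178 in Cy5 and 0.396 and 0.323 in Cy3.

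**Figure D1:**
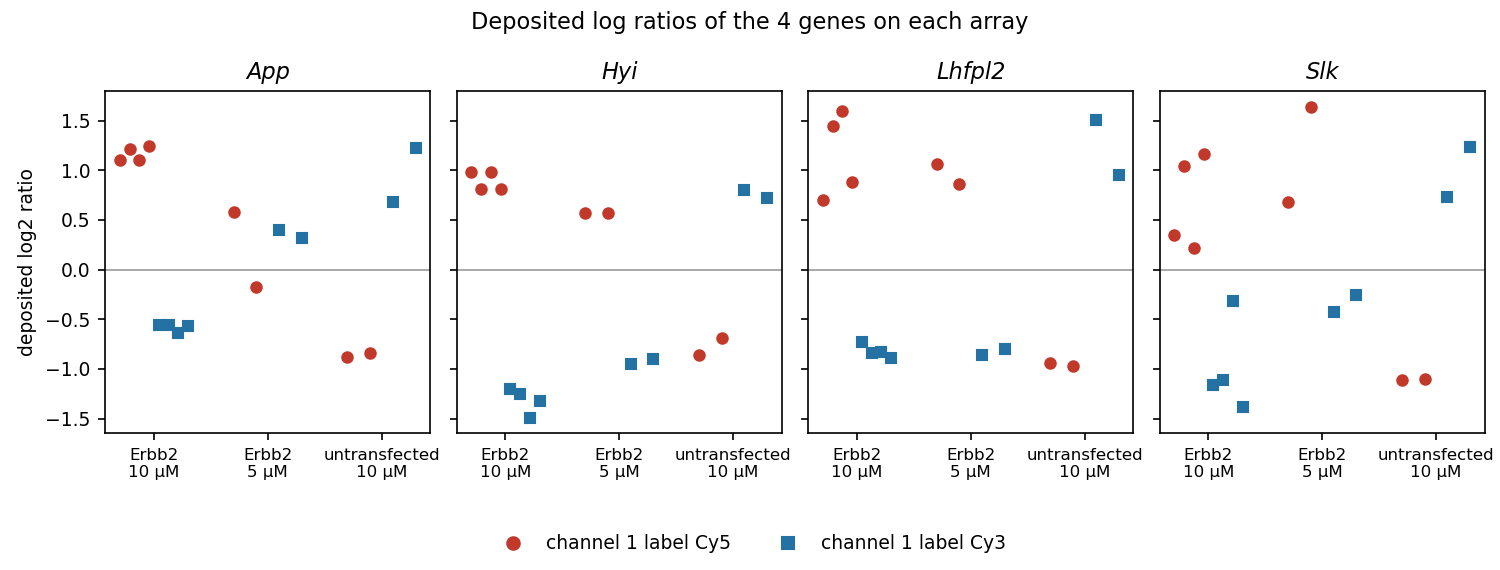
Deposited log2 ratios on the vertical axis for each gene, 1 point per array in the order of the replicate numbers within each group on the horizontal axis, coloured by the dye label of channel 1, which holds the treated RNA. The red and blue points lie on opposite sides of 0 in every panel and group except App at 5 µM, and their sides exchange between Erbb2 and untransfected cells.

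With the dyes turned, the share of the 7415 features with a value on all 16 arrays that had one sign on every array was 4.11% for Erbb2 cells given 10 µM, 19.2% for those given 5 µM and 28.2% for untransfected cells. As deposited, those shares were 2.08%, 15.2% and 10.1%. One sign was asked of 8 arrays in the first group and of 4 in each other group, so the shares cannot be compared between groups. Ratios of replicate arrays agreed little over all probes, with Pearson's r of the deposited values from 0.00882 to 0.117 between arrays of a group with the same dye label and from -0.0769 to 0.0349 between those with opposite labels. The numerator of the ratios is not stated. Reading them as Cy5 over Cy3 makes treated over untreated the likely direction once the arrays whose treated RNA carried Cy3 are turned, and the values below are log2 ratios read this way. The opposite ratio would reverse each sign.

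Hyi had the highest mean of the 4 genes in Erbb2 cells at 10 µM. Its log2 ratios there ran from 0.808 to 1.49 with a median of 1.09, all 8 above 0. At 5 µM its 4 arrays had 0.569, 0.572, 0.948 and 0.900. In untransfected cells they had -0.855, -0.687, -0.803 and -0.722. The transfected arrays lay above 0 at both doses and overlapped each other, and the untransfected arrays lay below 0 within a narrow range. The values fitted by limma were 1.11 ± 0.10 (SE, n = 8) at 10 µM, or 2.15-fold, 0.75 ± 0.13 (n = 4) at 5 µM, or 1.68-fold, and -0.77 ± 0.13 (n = 4) in untransfected cells, or 1.70-fold downward.

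Within the transfected cells Hyi was higher where Cy3 marked the treated RNA. Its mean at 10 µM was 0.896 in Cy5 and 1.32 in Cy3, and at 5 µM 0.571 and 0.924. In untransfected cells the 2 labels gave -0.771 and -0.762.

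Lhfpl2, the tetraspan gene, had the least spread at 5 µM. Its ratios there were 1.063, 0.867, 0.859 and 0.801. At 10 µM they ran from 0.697 to 1.601 with a median of 0.861. Arrays 2 and 3 were the high ones at 10 µM, with 1.447 and 1.601, and the other 6 lay between 0.697 and 0.887. Untransfected arrays had -0.943, -0.969, -1.51 and -0.948, so array 3 stood below the other 3. The fitted values were 0.99 ± 0.12 (SE, n = 8), 0.90 ± 0.17 (n = 4) and -1.09 ± 0.17 (n = 4) in the same order of groups as for Hyi, or 1.98-fold, 1.86-fold and, downward, 2.13-fold.

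Slk, the kinase, had the widest spread of the 4 genes in the Erbb2 groups, and in untransfected cells Lhfpl2 and App had a wider one. At 10 µM arrays 1, 3 and 7 had 0.349, 0.219 and 0.318. The other 5 arrays lay between 1.043 and 1.38. The low and the high arrays each included both dye arrangements. At 5 µM the values were 0.677, 1.64, 0.43 and 0.259, with array 2 highest, and in untransfected cells -1.114, -1.096, -0.735 and -1.232. All 12 transfected arrays lay above 0 and all 4 untransfected arrays below it. The fitted values were 0.84 ± 0.18 (SE, n = 8), 0.75 ± 0.25 (n = 4) and -1.04 ± 0.25 (n = 4).

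App differed from the other 3 genes at the lower dose. At 10 µM the 4 arrays with treated RNA in Cy5 had 1.103, 1.212, 1.108 and 1.248, and the 4 with it in Cy3 had 0.555, 0.553, 0.635 and 0.569. All 8 were above 0, in 2 tight sets that did not overlap. At 5 µM only array 1 was above 0, with 0.578, and the others had -0.178, -0.396 and -0.323. Untransfected arrays had -0.878, -0.839, -0.678 and -1.225. The fitted values were 0.87 ± 0.11 (SE, n = 8), -0.08 ± 0.16 (n = 4) and -0.91 ± 0.16 (n = 4). The 5 µM arrays lay between the other groups, and their highest value overlapped the lowest at 10 µM.

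**Figure D2:**
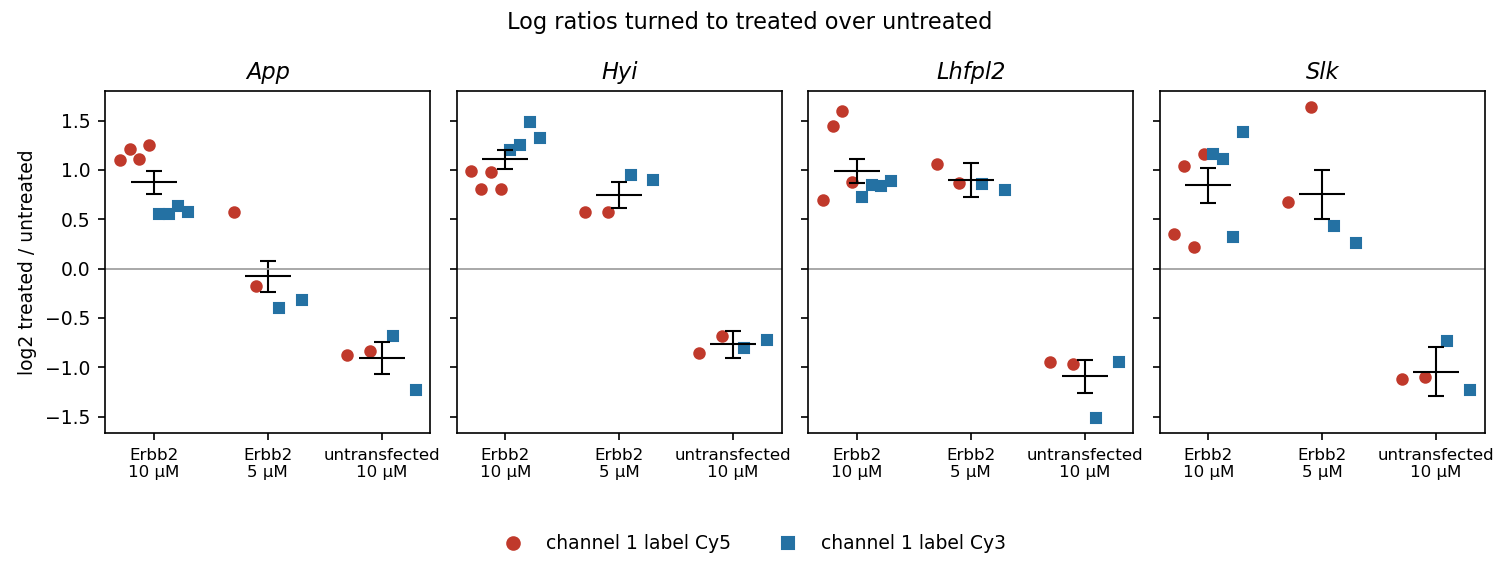
Log2 ratios of treated over untreated cells on the vertical axis, 1 point per array, with the fitted value and its SE as a black bar, for 8, 4 and 4 arrays of the groups on the horizontal axis. Erbb2 points of Hyi, Lhfpl2 and Slk lie above 0 at both doses, App lies around 0 at 5 µM, and all untransfected points lie below 0 under the channel 1 dye label.

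The 5 µM arrays were not used to choose the genes, although they share untreated Erbb2 cells as the reference with the 10 µM arrays. The fit also takes the spread of each feature from all 16 arrays, those that chose the genes included. In limma with Benjamini-Hochberg adjustment over all features, 0.177% of features passed as higher at 5 µM, and Hyi and Lhfpl2 were among them. Hyi had an adjusted p of 0.0419 and Lhfpl2 of 0.0451 in limma, each above 0 on 4 of 4 arrays. Slk, above 0 on 4 of 4 arrays, did not pass, with an adjusted p of 0.473, and App did not pass, with 1 of 4 arrays above 0 and an adjusted p of 1 in limma. Being above 0 on all 4 arrays at 5 µM held for 7.75% of the features with a full set of values. By rank from the highest of 12420 fitted values at 5 µM, Lhfpl2 stood at 459, Slk at 659, Hyi at 666 and App at 7172.

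Both calls at 5 µM lay close to the threshold. Over 16 fits that left out 1 array each, Hyi kept its size, 0.73 to 0.76, but its adjusted p ran from 0.0433 to 0.256 and it passed only without array 3, 5 or 6 of Erbb2 cells at 10 µM, while Lhfpl2 had 0.86 to 0.96 with an adjusted p of 0.0452 to 0.302 and passed only without array 3 of that group. With 4 arrays fitted alone, both had an adjusted p of 0.700 in limma, and no sign-flip test over 4 arrays can go below a two-sided exact p of 0.125.

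The dye of the treated RNA had its own term in the fit. It was 0.23 ± 0.08 for App, -0.15 ± 0.07 for Hyi, 0.13 ± 0.08 for Lhfpl2 and 0.01 ± 0.13 for Slk. The term is the shift with Cy5 from the midpoint between the dyes, and Cy3 carries the same shift with the opposite sign. The fitted gap between Cy5 and Cy3 is thus the term added to itself. None of the 4 passed in limma, with adjusted p from 0.536 to 0.982, and the share of all features past the threshold was 0%, while 1000 features had an unadjusted p under 0.05. The unadjusted p was under 0.05 for App and Hyi, at 0.0121 and 0.0412.

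Between the lines at 10 µM, every transfected array lay above every untransfected array for each of the 4 genes. The rule fixed the direction of this difference, and 2.09% of all features showed the same separation. The lowest transfected array exceeded the highest untransfected one by 1.64 for Lhfpl2, 1.495 for Hyi, 1.23 for App and 0.954 for Slk on the log2 scale. The fitted differences, Erbb2 minus untransfected, were 2.08 ± 0.21 for Lhfpl2, 1.89 ± 0.31 for Slk, 1.87 ± 0.16 for Hyi and 1.78 ± 0.20 for App. The 4 values lay within 0.31, the standard error of Slk, of each other. Counting all features, 22.7% had means on the sides of 0 that the rule asks for, 0.62% passed as higher in this contrast, and 0.403% passed as higher in Erbb2 cells and 2.13% as lower in untransfected cells.

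Both channels of each untransfected array carry the same dye label, so which dye held the treated RNA there cannot be settled. With it in the other dye, the 4 genes lay above 0 in both lines. The untransfected values became 0.91 ± 0.16 for App, 0.77 ± 0.13 for Hyi, 1.09 ± 0.17 for Lhfpl2 and 1.04 ± 0.25 for Slk. The difference between the lines then shrank to -0.03 ± 0.20 for App, 0.34 ± 0.16 for Hyi, -0.10 ± 0.21 for Lhfpl2 and -0.20 ± 0.31 for Slk. That difference exceeded its standard error for Hyi, with an adjusted p of 0.448 in limma, and was smaller than it for App, Lhfpl2 and Slk. None of the 4 genes passed in this contrast. The p comes from the values that chose the genes and is no test of them. The opposition of the lines thus rests on the sign that this label gives. The fitted values at 5 µM did not move with it.

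**Figure D3:**
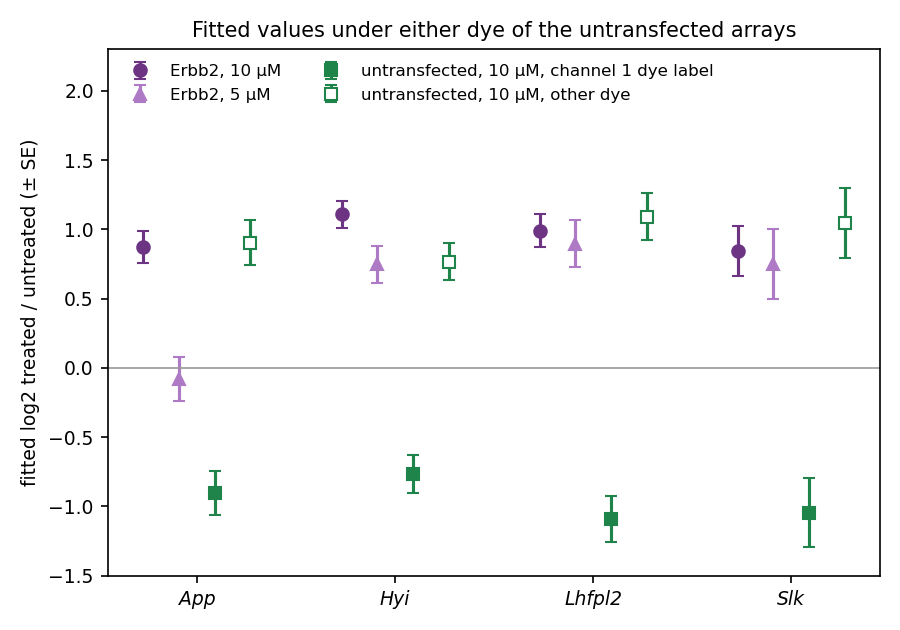
Fitted log2 ratios of treated over untreated cells with their SE on the vertical axis, for Erbb2 cells at 10 µM (n = 8) and 5 µM (n = 4) and for untransfected cells at 10 µM (n = 4) with the treated RNA in the labelled dye (filled squares) or in the other dye (open squares). The open squares lie from 0.77 to 1.09, close to the Erbb2 values at 10 µM, and the filled squares are their mirror image below 0.

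The other reading, in which the authors had already turned the ratios, left little of either value. With no array turned the 4 genes had 0.29, -0.21, 0.17 and -0.15 in Erbb2 cells at 10 µM for App, Hyi, Lhfpl2 and Slk. In untransfected cells they had 0.047, -0.0043, 0.14 and -0.06. In that reading the arrays of a group lay on both sides of 0, as the deposited values show.

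Opposite signs in the 2 lines were also counted over all features. Under the channel 1 label 90 features passed in both 10 µM groups, which is 57.3% of those that passed in Erbb2 cells and 26.5% of those in untransfected cells. One sign in both lines was seen for 79 of them, 71 lower and 8 higher, and opposite signs for 11, all higher in Erbb2 cells. Over the alternative fits that kept the dye reading and fitted the groups together, the 11 became 8 to 18, and it became 0 in limma with each group fitted alone or with no array turned. With the untransfected arrays turned the other way, 11 had one sign and 79 opposite signs. Across all features, which are not independent, Pearson's r between the fitted values of the 2 lines was 0.0473 under the channel 1 label. Over the 406 features that passed in either 10 µM group it was 0.289 under the same label.

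The 11 include the 4 genes, which were chosen on these values, so their place among them is no result. Of the 7 other features, 5 carried a gene symbol. They were Apaf1, the scaffold of the apoptosome, Hoxb1, a homeobox transcription factor, Psap, the precursor of the lysosomal saposins, Grn, which encodes the secreted and lysosomal progranulin, and Npc2, a lysosomal cholesterol carrier. At 10 µM in Erbb2 cells the fitted values were 1.15 ± 0.10 for Apaf1, 1.18 ± 0.11 for Hoxb1, 0.97 ± 0.10 for Psap, 0.66 ± 0.10 for Grn and 0.46 ± 0.09 for Npc2. In untransfected cells they were -0.80 ± 0.14, -0.67 ± 0.15, -0.76 ± 0.15, -0.86 ± 0.15 and -0.55 ± 0.13 in the same order. Apaf1, Hoxb1 and Psap passed at 5 µM, with 0.84 ± 0.14, 0.87 ± 0.15 and 0.81 ± 0.15. Their adjusted p there was 0.0353, 0.0412 and 0.0439 in limma, close to the threshold. At 5 µM Grn had 0.16 ± 0.15, above 0 on 3 of 4 arrays, and Npc2 had 0.34 ± 0.13, and neither passed. All 7 other features lay above 0 at 5 µM, and 5 passed there. By the stricter count of arrays, 0.364% of the features with a full set of values lay above 0 on all 8 arrays of Erbb2 cells and below 0 on all 4 untransfected arrays, the 4 genes among them, and 66.7% of these 27 were also above 0 on all 4 arrays at 5 µM, as Hyi, Lhfpl2 and Slk were.

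**Figure D4:**
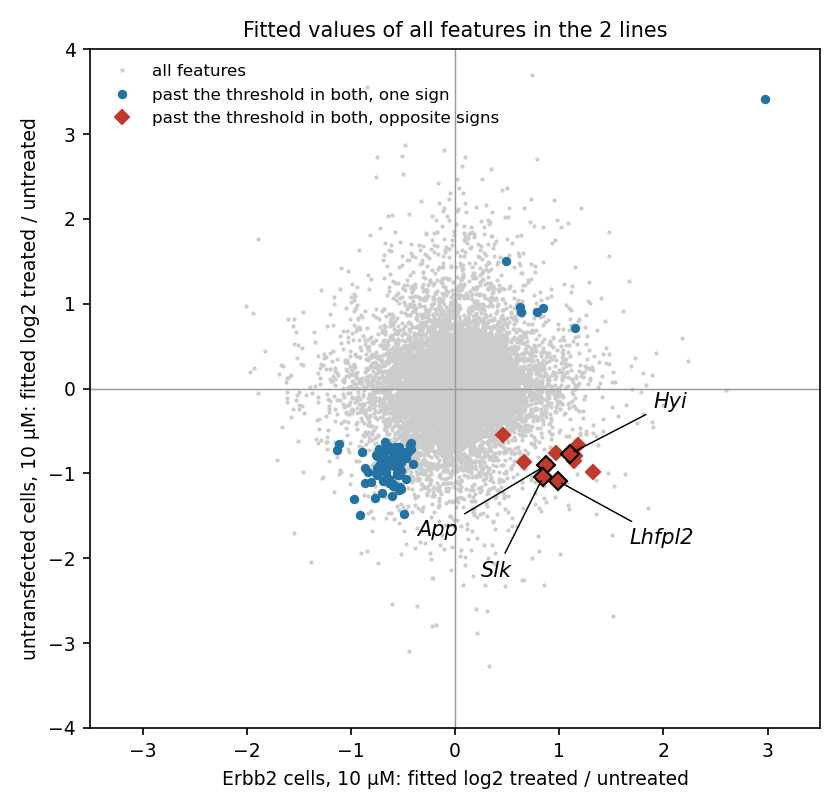
Fitted log2 ratios of treated over untreated cells at 10 µM for 12420 features, Erbb2 cells on the horizontal and untransfected cells on the vertical axis under the channel 1 label, with 1 feature outside the axes. The 11 red diamonds passed in both groups with opposite signs and the 79 blue points with one sign, and the diamonds with black edges are the 4 genes, which were chosen on the values of these axes.

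Over the 16 arrays the 4 genes followed each other with Pearson's r from 0.71 for App and Slk to 0.90 for Hyi and Lhfpl2. These coefficients describe the pattern that the rule asked for, and the arrays of a group share their references. Among 4979 other named genes with a full set of values, the most like App were Grn (r = 0.92), the mitochondrial carrier gene Slc25a33 (0.90) and Apaf1 (0.89). The most like Hyi were Cdh5, the endothelial cadherin (0.98), Npc2 (0.98) and Tmem126a, a mitochondrial membrane protein gene (0.95). The most like Lhfpl2 were Apaf1 (0.96), the annexin partner S100a10 (0.94) and the glutamyl-prolyl tRNA synthetase gene Eprs (0.94). The most like Slk were the carboxypeptidase-like gene Scpep1 (0.90), the poly(A)-binding protein gene Pabpc1 (0.89) and the mitochondrial chaperonin gene Hspd1 (0.87).

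A high coefficient did not mean opposed values. Cdh5 had 0.06 ± 0.09 in Erbb2 cells at 10 µM and -1.08 ± 0.13 in untransfected cells, and Scpep1 had -0.02 ± 0.11 and -1.87 ± 0.15. Both were near 0 in the transfected cells on either side of it, and followed the genes through the untransfected arrays. With those arrays turned, Pearson's r with its member fell to -0.09 for Cdh5 and 0.30 for Scpep1. It also fell for genes with opposed values, from 0.98 to 0.54 for Npc2 with Hyi, from 0.96 to 0.25 for Apaf1 with Lhfpl2, from 0.89 to 0.54 for Apaf1 with App and from 0.92 to 0.80 for Grn with App.

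Genes that act with each member were described from 4 lists. Of the genes for amyloid precursor processing and its partners, 31 of 47 were measured, and 0 passed in any group in limma, with 5, 3 and 5 at an unadjusted p under 0.05, where the shares of all features that passed were 1.26% (Erbb2, 10 µM), 0.209% (Erbb2, 5 µM) and 2.73% (untransfected), the order in which groups are given here. An unadjusted p under 0.05 was found for 10.8%, 6.33% and 11.5% of all features in that order, beside which the unadjusted counts of each list stand. The list had a median of 0.17 for Erbb2 cells given 10 µM, of 0.14 for those given 5 µM and of -0.05 for untransfected cells, beside medians of -0.0034, -0.02 and 0.03 over all features. The 3 smallest p of the list belonged to the endothelin-converting enzyme gene Ece2 (0.59 ± 0.15, adjusted p = 0.0911 in limma) and the App relative Aplp2 (0.36 ± 0.11, adjusted p = 0.208 in limma) in Erbb2 cells at 10 µM, and to the Notch regulator Numb (-0.73 ± 0.24, adjusted p = 0.170 in limma) in untransfected cells.

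Of the genes of hydroxypyruvate, glyoxylate and serine metabolism, 17 of 30 were measured. In untransfected cells 2 fell, where 2.13% of all features passed as lower. They were Phgdh, the first enzyme of serine synthesis from glycolysis (-1.21 ± 0.25, adjusted p = 0.0159 in limma), and Psat1, the aminotransferase that follows it (-0.84 ± 0.21, adjusted p = 0.0405 in limma). Their direction would turn with the dye of those arrays. In Erbb2 cells 0 passed at either dose in limma, with 3 and 2 at an unadjusted p under 0.05, and the medians were -0.06 and -0.09 at the higher and lower dose, and -0.10 in untransfected cells.

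Of the LHFPL family and claudin-type tetraspan genes, 16 of 44 were measured and 0 passed in any group in limma, with 0, 1 and 2 at an unadjusted p under 0.05 and medians of -0.05, 0.04 and 0.15 in the same order of groups. The 3 smallest p were those of the epithelial membrane protein gene Emp2 (-1.46 ± 0.38) and its relative Emp3 (0.57 ± 0.27) in untransfected cells and of Pllp, which encodes plasmolipin (0.74 ± 0.34), at 5 µM. Of the STE20 kinases and partners of Slk, 19 of 42 were measured and 0 passed in limma, with 1, 0 and 3 at an unadjusted p under 0.05 and medians of -0.04, 0.08 and -0.13. The 3 smallest p were those of Nf2, the tumour suppressor merlin (-0.49 ± 0.16), and the kinase gene Map4k4 (-0.64 ± 0.25) in untransfected cells, and the kinase gene Oxsr1 (-0.54 ± 0.23) in Erbb2 cells at 10 µM.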

How the data were processed

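RNA of treated and untreated cells was compared on 16 arrays with 2 dyes each. The authors deposited centred log ratios per probe, taken here to be log2, with array medians from -0.03 to 0.05. The log base was inferred from the values. How images, background and normalization were handled is not given in the sources used here, and signal intensity was not analysed. Each array repeats 1 value between 15.4 and 16.6, and these 1755 cells were treated as placeholders without a ratio, as were 38737 empty cells. Usable ratios per array numbered 16153 to 18507, and precision is limited by the number of arrays.

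Arrays with the treated RNA in Cy3, by the label of channel 1, had their sign turned. A probe needed 3 values in a group of 4, 6 in the group of 8, and both dyes in each, which left 14813 of 20355. Probes with 1 symbol were averaged by gene. Symbols came from the platform annotation, and 13994 of 14030 probes matched the RefSeq table by Entrez Gene ID. One model in limma 3.58.1 (R 4.3.3) had a coefficient for each of 3 groups and a dye term, over all 16 arrays, with eBayes. Features passed at an adjusted p below 0.05 (Benjamini-Hochberg over the whole table, two-sided). The procedure was tested on simulated data.

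The 4 genes, the lists and the tests were chosen with earlier results of these data known. Named genes are the 4, the 3 named genes most like each by Pearson's r over 16 arrays, the named genes past the threshold in both 10 µM groups with opposite signs, and of each list the genes past the threshold or, with none, the 3 smallest p. Equal replicate numbers were checked by the correlation of residuals, which exceeded 0.1 for 3 of 12 same-numbered pairs, so they were not taken to pair arrays. Alternatives changed the dye reading, placeholders, filter, probe averaging, scaling, dye term, array weights, arrays included and a replicate block.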

Additional observations from a re-analysis of the deposited data

Results flagged for a closer look

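Lhfpl2 on array 3 of untransfected cells, at -1.51, lay apart from the other 3 arrays of its group. It was the 1 of 12 sets of 1 gene in 1 group in which an array stood apart by Dixon's ratio, which chance gives in about 1 of 20 sets. Under the channel 1 dye label every array of Erbb2 cells at 10 µM lay above 0 and every untransfected array below 0 for all 4 genes, as the choice of the genes asked of the means, and this difference was not tested. The differences, Erbb2 minus untransfected, were 1.78 for App, 1.87 for Hyi, 2.08 for Lhfpl2 and 1.89 for Slk on the log2 scale.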

How the results depend on the processing

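With no array turned, the values at 5 µM became 0.28 for App, -0.18 for Hyi, 0.067 for Lhfpl2 and 0.41 for Slk, 0 features passed at 5 µM in limma (519 at an unadjusted p under 0.05), Hyi and Slk became -0.21 and -0.15 at 10 µM and -0.21 and -0.089 in the contrast between the lines, App and Lhfpl2 became 0.047 and 0.14 in untransfected cells, and the dye term of Hyi became 0.55. With the untransfected arrays in the other dye, App, Hyi, Lhfpl2 and Slk became 0.91, 0.77, 1.09 and 1.04 there, and App, Lhfpl2 and Slk became -0.032, -0.10 and -0.20 in the contrast.

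The number of features past the threshold at 5 µM, 26 in the reported fit, was 4 with at least 2 values per group, 73 with a value on all 16 arrays, 16 with each probe alone, 45 with arrays scaled to one spread, 42 with quantile normalization, 96 with array weights and 0 in limma with each group fitted alone (875 at an unadjusted p under 0.05). It ran from 5 to 24 with 1 array left out. Hyi at 0.75 and Lhfpl2 at 0.90 no longer passed with at least 2 values per group (adjusted p = 0.0853 for both in limma), with each probe alone (0.0518 and 0.0527), with no dye term (0.0805 and 0.0670), with each group alone (0.700 for both) or without the 3 widest arrays of Erbb2 cells, numbers 3, 5 and 6 (0.0616 and 0.0554). Over all alternatives other than leaving out 1 array, the adjusted p from limma ran from 0.00439 to 1 for Hyi and from 0.00668 to 1 for Lhfpl2. With the replicate number as a block, Lhfpl2 at 0.90 had an adjusted p of 0.0516 in limma and did not pass, 25 features passed, and the calls of the other 3 genes at 5 µM did not change. With 1 array left out, App ran from -0.24 to 0.039, Hyi from 0.729 to 0.757, Lhfpl2 from 0.863 to 0.957 and Slk from 0.43 to 0.93 at 5 µM, and the dye term of Slk from -0.068 to 0.060. At 10 µM, where the genes were chosen, Slk had an adjusted p in limma of 0.0293 in Erbb2 and 0.0365 in untransfected cells, of up to 0.0898 and 0.162 with 1 array left out, of 0.0565 and 0.0582 with at least 2 values per group, and of 0.0717 in Erbb2 cells with array weights. With each group fitted alone, the 4 genes had adjusted p of 0.211 to 0.23 in untransfected cells, and Lhfpl2 and Slk had 0.0664 and 0.202 in Erbb2 cells, in limma. These p-values at 10 µM come from the values that chose the genes. They describe which calls enter the count of opposite signs and are no test of the 4 genes. The number of features with opposite signs in both lines, a count whose alternatives were chosen after seeing the data, was 79 with the untransfected arrays in the other dye and 18 with a value on all 16 arrays. In residuals, 1 of 12 arrays correlated best with its own number. Why calls changed was not tested, and fits that leave arrays out also have fewer arrays. Signal over background is unknown.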
